A study of Mus musculus with 8 samples.

Results

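Mitosis genes were followed in regulatory T (Treg) cells, which restrain other immune cells and are defined by Foxp3, from mice with floxed or intact Pdpk1, the gene of the kinase PDK1. The 38 genes were chosen by name as established genes of the G2 and M phases of the cell cycle, with earlier results of these data known. All 38 were listed among the 19826 genes of the table, and 37 of them were among the 13847 genes with enough reads to test. Polyadenylated RNA was sequenced from CD4+ YFP+ cells sorted out of the spleen and peripheral lymph nodes of untreated C57BL/6 mice. The Pdpk1 KO group, 4 libraries, had the genotype Foxp3 YFP-Cre/+ Pdpk1 FL/FL. The WT group, also 4 libraries, had the genotype Foxp3 YFP-Cre/+ Pdpk1 +/+. Both groups therefore carry 1 copy of the Foxp3 allele that makes YFP and Cre, so Cre acts where Foxp3 is active, and in a female carrier Treg that use the other X chromosome lack it. The labels give no ages and do not say whether a library is 1 mouse, and the p-values therefore reflect library-to-library spread, which may be technical.

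A cell enters mitosis when cyclin-dependent kinase 1, bound to cyclin A or B, becomes active. Chromosomes then condense, their kinetochores attach to spindle microtubules, and a checkpoint holds the cell until every attachment is made. The anaphase-promoting complex then marks cyclin B and other proteins for destruction, the chromatids separate, and the cell divides in the middle. Transcripts of these genes are made mostly in G2 and M, under the factors FoxM1 and B-Myb, and are repressed in resting cells. In a bulk sample they are therefore read as a proliferation signature. In these bulk libraries fewer dividing cells and less RNA per dividing cell cannot be told apart.

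The libraries held between 17448095 and 26299577 recovered reads. The values, called normalized counts here, are reads per gene after the authors' division by a size factor for each library. Foxp3 stood between 4708 and 6340 normalized counts in Pdpk1 KO and between 4418 and 6098 in WT. Of the 10 Treg and T cell markers tested, 2 were lower, 1 was higher and 7 did not pass. Of all genes tested 5.06% were lower and 4.41% higher. At an unadjusted limma p under 0.05, 7 of the 10 were lower and 1 higher, where 12.2% of all genes were lower. DESeq2 called 6 of the 10 lower and 1 higher, beside 6.56% and 6.12% of all genes. Without WT replicate 1 limma called 5 of the 10 lower, beside 4.33% of all genes. Ikzf2, encoding Helios, and Trac, the T cell receptor alpha constant region, were lower (log2 changes -1.13 and -0.68, limma adjusted p = 4.45e-06 and 0.0118). Il2ra, the alpha chain of the interleukin 2 receptor, was higher (log2 change 0.63, limma adjusted p = 0.00114). The 10 summed to between 81509 and 92910 normalized counts in Pdpk1 KO and between 91145 and 110996 in WT. Pdpk1 had 2505, 1900, 1872 and 1656 normalized counts in Pdpk1 KO, against 2600, 2374, 1995 and 1923 in WT (exact two-sided permutation p = 0.286, the smallest possible being 0.0286). This whole-gene value sums exons that may lie outside the deleted part and so does not check the labels. Transcripts of macrophages were present and differed. Of 17 tested macrophage and myeloid markers of 19 listed, 7 were higher, 1 (Axl) was lower and 9 did not pass. Their summed level ran from 2164 to 6803 normalized counts in Pdpk1 KO and from 1566 to 3080 in WT. Axl alone supplied 1296, 1130, 941 and 1152 of the WT sums of 1621, 3080, 1566 and 1816. In Pdpk1 KO Axl had 404, 796, 777 and 417, so the sum understates the difference in the other markers. At least 1 library was at 0 for 7 of the 19, among them Spic, Mertk, Marco and Cd163 in WT replicate 1. B cell and plasma cell markers summed to between 6062 and 7294 in Pdpk1 KO and between 5761 and 9499 in WT, nearly all of it Ighm. Of 4 tested, Cd79b and Cd22 were lower (log2 changes -1.17 and -2.69, limma adjusted p = 0.00407 and 0.0151), Cd22 not without WT replicate 1 (limma adjusted p = 0.0656). Cd79a and Ighm did not pass, at log2 changes of 0.73 and -0.19 (limma adjusted p = 0.258 and 0.448). Erythroid markers summed to between 901 and 1237 in Pdpk1 KO and between 896 and 1191 in WT, mostly Gata1, and 0 of 2 tested passed in limma or at an unadjusted p under 0.05. The 2 listed neutrophil genes were at 0 in every Pdpk1 KO library and reached at most 17.5 normalized counts summed in WT. Dendritic cell markers summed to at most 74.1 in Pdpk1 KO and 98.4 in WT, and CD8 and NK markers to between 477 and 725 in Pdpk1 KO and between 725 and 867 in WT. The 1 dendritic gene tested did not pass. Of 4 CD8 and NK genes tested, Nkg7, of cytotoxic granules, was lower (log2 change -2.29, limma adjusted p = 5.7e-05). Cd8a, Cd8b1 and Eomes did not pass, at log2 changes of 1.47, 0.19 and -0.12 (limma adjusted p = 0.195, 0.612 and 0.872). Cd8a averaged 44.0 normalized counts in Pdpk1 KO and 20.5 in WT. The part of these other cell types in the results on mitosis genes was not tested.

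Mitosis transcripts were a small part of the RNA in both groups and smaller in Pdpk1 KO. The 38 genes together took 0.0349, 0.0258, 0.0256 and 0.0193% of the reads in Pdpk1 KO replicates 1 to 4. In WT replicates 1 to 4 they took 0.083, 0.0357, 0.0409 and 0.0417%. As sums of normalized counts these were 7435, 6044, 5746 and 4333 in Pdpk1 KO, against 16320, 7525, 8975 and 8512 in WT. Every Pdpk1 KO library thus lay under every WT library, although Pdpk1 KO replicate 1 came close to WT replicate 2. WT replicate 1 stood far above all others. The mean sum was 5890 ± 1273 in Pdpk1 KO and 10333 ± 4037 in WT (SD, n = 4 each). Without WT replicate 1 the WT mean was 8337 ± 740.3 (SD, n = 3), and the Pdpk1 KO mean was then 0.706 of it, against 0.57 with all libraries. Mki67, Top2a, Stmn1, Incenp, Cenpa and Racgap1, the 6 genes with the highest means, supplied 58% of the summed level. The other 32 summed to 2978, 2208, 2293 and 1597 in Pdpk1 KO and to 7464, 3237, 3812 and 3658 in WT, with the same order of groups.

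**Figure D1:**
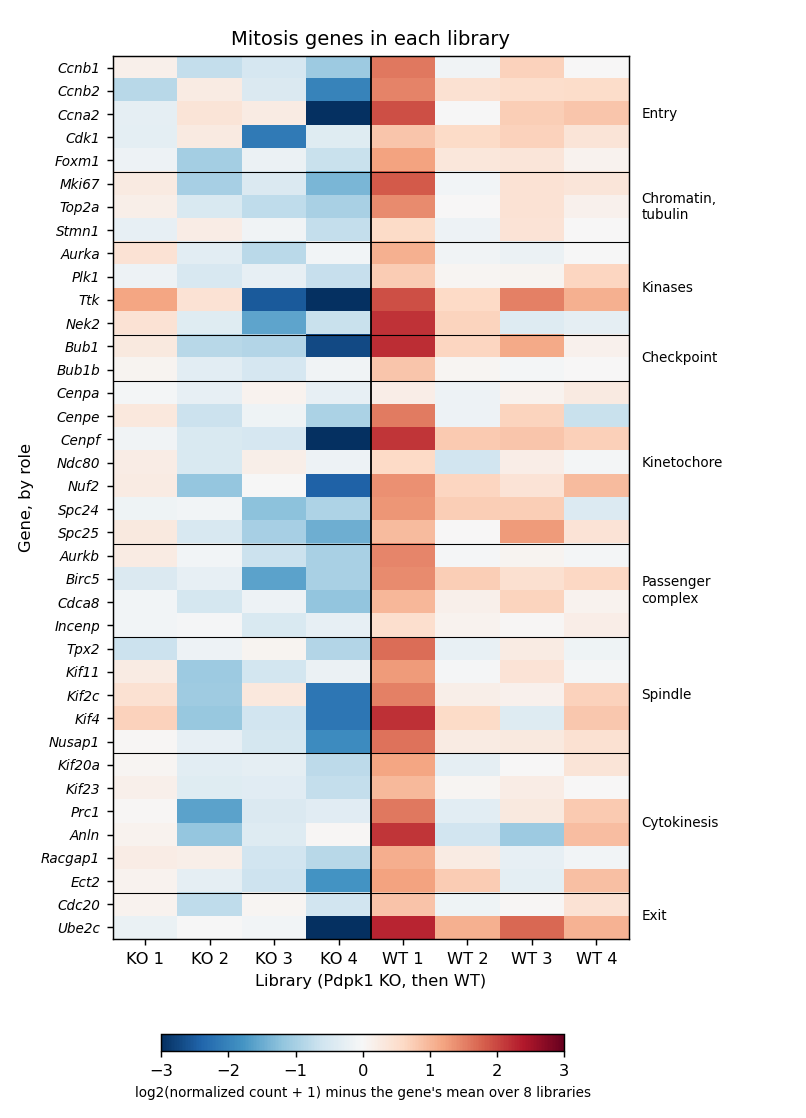
Level of each of the 38 mitosis genes in each library, as log2(normalized count + 1) minus the gene's own mean over the 8 libraries, Pdpk1 KO in the left 4 columns and WT in the right 4, with rows grouped by role (red above and blue below the gene's mean, colours ending at 3 on either side). WT replicate 1 was the highest of the 8 libraries for 36 of the 38 genes and Pdpk1 KO replicate 4 the lowest for 24.

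Gene by gene, 6 of the 37 tested mitosis genes were lower in Pdpk1 KO, 0 were higher and 31 did not pass the threshold of an adjusted p of 0.05. The test was limma on log2(normalized count + 1), adjusted over all 13847 genes, of which 5.06% were lower and 4.41% higher. The 6 were Birc5, Ccnb2, Cenpf, Top2a, Mki67 and Foxm1. The median log2 change of the 37 was -1.002, Pdpk1 KO minus WT, against -0.0065 for all genes tested. The change was negative for all 37, as it was for 50.9% of all genes. At an unadjusted p under 0.05, 27 of the 37 were lower and 0 higher, where 12.2% of all genes were lower. DESeq2 called 14 lower and 0 higher, beside 6.56% of all genes lower and 6.12% higher. The 14 held 4 of the 6 limma calls, without Mki67 and Top2a (DESeq2 adjusted p = 0.0928 and 0.0782). edgeR called 5 lower and 0 higher, beside 4.73% and 4.33% of all genes. These 5 were the limma calls without Foxm1 (edgeR adjusted p = 0.0516). The count of 6 depended on single libraries. It was 1 without WT replicate 1, beside 4.33% of all genes lower and 3.81% higher. It was 3 without WT replicate 3, where 559 of all 13847 genes were lower and 494 higher. It was 3 without WT replicate 4, with 495 of all genes lower and 389 higher. It was 15 without Pdpk1 KO replicate 1, with 724 of all genes lower and 588 higher. With the mean macrophage marker level as a covariate 0 of the 37 passed in either direction, while 1.87% of all genes were lower and 1.43% higher. The marker level went with genotype, at 5.72, 7.65, 7.16 and 5.75 in Pdpk1 KO and 3.13, 6.24, 4.08 and 4.67 in WT. A fit on 8 libraries therefore separates marker level and genotype poorly. In that fit 5 of the 37 had an unadjusted p under 0.05 and the median log2 change was -0.44, while Ccnb2, Cenpf and Birc5 were at -1.73, -2.28 and -1.40 (limma adjusted p = 0.124, 0.209 and 0.145) and Top2a, Mki67 and Foxm1 at -0.38, -0.44 and -0.55. Without the 3 libraries highest in those markers, Pdpk1 KO replicates 2 and 3 and WT replicate 2, the median was -1.05 and 1 gene, Ccnb2, passed, beside 2.2% of all genes lower and 1.21% higher.

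The groups did not overlap for 11 of the 37, each lower in all 4 Pdpk1 KO libraries than in any WT library, and this held for 8.24% of all genes tested. The 11 were Ccnb2, Cdk1, Foxm1, Plk1, Birc5, Cdca8, Incenp, Cenpf, Nuf2, Nusap1 and Ube2c. The same number, 11, lay below WT replicates 2 to 4 when WT replicate 1 was set aside, beside 10.5% of all genes tested. No mitosis gene was higher in every Pdpk1 KO library than in every WT library, beside 7.06% of all genes.

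**Figure D2:**
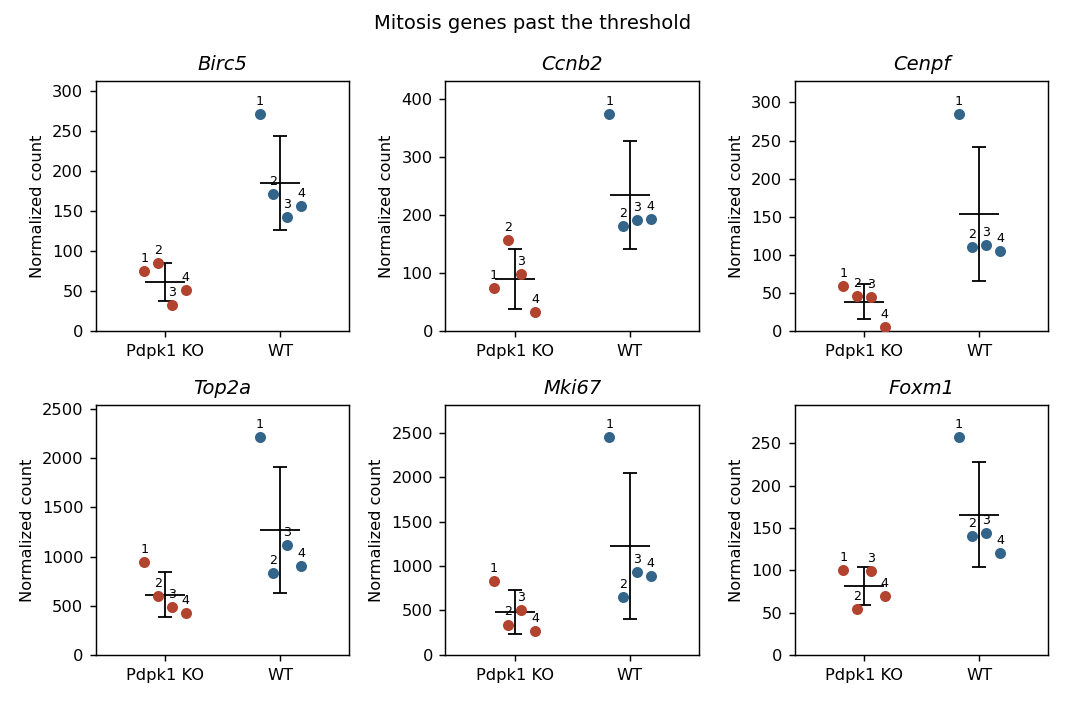
Normalized counts of the 6 mitosis genes past the threshold, 1 panel per gene, with 1 numbered point per library, Pdpk1 KO on the left and WT on the right, and bars for the mean and SD of 4 libraries. WT replicate 1 was the highest point in every panel, and the groups did not overlap for Birc5, Ccnb2, Cenpf and Foxm1.

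Birc5 encodes survivin, the subunit that carries the chromosomal passenger complex to chromosomes (ENSMUSG00000017716, GRCm38 chromosome 11, 117849251 to 117855743, plus strand). It had 75.4, 85.5, 32.6 and 51.2 normalized counts in Pdpk1 KO, against 272, 171, 143 and 156 in WT. The groups were well apart, with the highest Pdpk1 KO value at 85.5 and the lowest WT value at 143. The log2 change was -1.63 ± 0.33 (SE, limma adjusted p = 0.0054), and Birc5 was the one mitosis gene called in all 8 fits that left out 1 library, at an adjusted p of at most 0.0189. Ccnb2 encodes cyclin B2, a partner of cyclin-dependent kinase 1 (chromosome 9, 70407692 to 70421547, minus strand). It stood at 73.6, 157, 97.7 and 32.4 in Pdpk1 KO, against 374, 180.3, 191 and 193 in WT. Pdpk1 KO replicate 2 was near the lowest WT library, and 3 of 4 WT libraries lay within a narrow span. Its log2 change was -1.51 ± 0.40 (SE, limma adjusted p = 0.0249).

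Cenpf, a large protein of the outer kinetochore and nuclear matrix (chromosome 1, 189640606 to 189688086, minus strand), had 58.7, 46.0, 44.9 and 5.1 normalized counts in Pdpk1 KO, against 285, 110.5, 113 and 105 in WT. Its log2 change of -2.24 ± 0.61 (SE, limma adjusted p = 0.0292) was the largest of the 6. Pdpk1 KO replicate 4 was far under the other Pdpk1 KO libraries, and WT replicate 1 far above the other WT libraries. Top2a encodes topoisomerase II alpha, which untangles sister chromatids (chromosome 11, 98992943 to 99024189, minus strand). Its values were 941, 600.5, 491 and 422 in Pdpk1 KO, against 2212, 833, 1121 and 905 in WT. The groups overlapped, since Pdpk1 KO replicate 1 exceeded WT replicates 2 and 4 (log2 change -0.999 ± 0.28 SE, limma adjusted p = 0.0327).

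Mki67 encodes Ki-67, the protein that coats mitotic chromosomes and marks cycling cells (chromosome 7, 135689784 to 135716361, minus strand). It had 826, 342, 504 and 265 normalized counts in Pdpk1 KO, against 2446, 648, 931 and 884 in WT, and again Pdpk1 KO replicate 1 lay inside the WT range. The log2 change was -1.28 ± 0.36 (SE, limma adjusted p = 0.0372). Foxm1 encodes the forkhead factor that activates many of the other genes described here (chromosome 6, 128362967 to 128376146, plus strand). It stood at 101, 54.8, 98.8 and 69.98 in Pdpk1 KO, against 257, 141, 145 and 120.3 in WT. Its groups were apart by a small margin and its log2 change of -1.002 ± 0.30 was close to the threshold (SE, limma adjusted p = 0.0494). Without WT replicate 1 the log2 changes of Ccnb2, Cenpf, Top2a, Mki67 and Foxm1 were -1.26, -1.89, -0.69, -0.88 and -0.77 and none of these 5 passed (limma adjusted p = 0.0715, 0.0839, 0.0626, 0.0737 and 0.147).

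The promoters of these genes are shown as a description of the list, and their part in the levels was not tested. Many G2 and M phase promoters are known to carry a cell cycle genes homology region (CHR), bound by the MuvB complex, and CCAAT boxes, bound by NF-Y. RefSeq windows on GRCm38.p6, from 250 bases before to 50 after the annotated start, were found for 30 of the 38 genes. The letters TTTGAA, a common form of the CHR, were present on either strand in 23 of the 30 windows (76.7%), in 6 of 43 windows of S phase genes (14%) and in 18.1% of all 27025 windows. Starting within 50 bases of the start they were present in 21 of the 30 (70%) and in 4.92% of all windows. The letters CCAAT, on either strand, were present in 24 of the 30 (80%), in 26 of the 43 S phase windows (60.5%) and in 37.9% of all windows. Both sets of letters were present in 20 of the 30 (66.7%), against 7.12% of all windows, and 1 TTTGAA match shared a base with a CCAAT match. These matches describe the letters and do not show binding. The 38 genes were chosen by name as G2 and M phase genes, and a high share of these letters can follow from that choice. Stretches from 200 bases before to 20 after the start follow for the called genes that have a window, and for Cdk1 as the partner of cyclin B2, with TTTGAA and CCAAT of either strand in capitals.
Birc5, chr11:117849037-117849256, plus strand: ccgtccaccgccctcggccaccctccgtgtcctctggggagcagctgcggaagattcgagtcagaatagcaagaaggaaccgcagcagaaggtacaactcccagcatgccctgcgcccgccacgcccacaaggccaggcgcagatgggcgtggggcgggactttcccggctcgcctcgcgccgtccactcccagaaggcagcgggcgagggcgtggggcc
Ccnb2, chr9:70421535-70421754, minus strand: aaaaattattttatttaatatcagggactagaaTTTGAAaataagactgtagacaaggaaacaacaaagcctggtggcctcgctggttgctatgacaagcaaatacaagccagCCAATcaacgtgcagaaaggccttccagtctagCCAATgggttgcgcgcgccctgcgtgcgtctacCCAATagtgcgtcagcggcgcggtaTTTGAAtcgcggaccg
Cenpf, chr1:189688067-189688286, minus strand: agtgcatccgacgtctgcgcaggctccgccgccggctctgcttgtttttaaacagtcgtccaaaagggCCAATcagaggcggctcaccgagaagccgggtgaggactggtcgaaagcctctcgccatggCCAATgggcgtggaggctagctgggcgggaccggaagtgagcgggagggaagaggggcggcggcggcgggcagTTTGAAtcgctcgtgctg
Top2a, chr11:99024170-99024389, minus strand: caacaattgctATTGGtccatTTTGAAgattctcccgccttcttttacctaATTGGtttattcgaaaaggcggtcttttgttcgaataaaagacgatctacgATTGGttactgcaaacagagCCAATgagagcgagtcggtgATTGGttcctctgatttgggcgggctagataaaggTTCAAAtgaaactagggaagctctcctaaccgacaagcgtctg
Mki67, chr7:135716360-135716579, minus strand: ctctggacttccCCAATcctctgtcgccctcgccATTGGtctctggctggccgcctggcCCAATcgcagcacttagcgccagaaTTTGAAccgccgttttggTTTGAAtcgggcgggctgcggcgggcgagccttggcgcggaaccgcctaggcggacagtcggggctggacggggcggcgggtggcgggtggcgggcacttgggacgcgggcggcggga
Cdk1, chr10:69352893-69353112, minus strand: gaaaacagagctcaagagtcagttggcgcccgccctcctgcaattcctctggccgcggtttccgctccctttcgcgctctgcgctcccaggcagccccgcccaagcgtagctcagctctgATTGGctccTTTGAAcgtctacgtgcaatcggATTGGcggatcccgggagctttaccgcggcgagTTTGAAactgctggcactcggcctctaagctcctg

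In Ccnb2 and Cenpf the TTTGAA letters nearest the start lay from base 5 to 10 and from base 3 to 8 after it, counting the start as 1. In Cdk1 they lay from 15 to 10 bases before it. The window of Birc5, the gene with the lowest adjusted p, held neither TTTGAA nor CCAAT.

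The genes of mitotic entry were those for cyclins A2, B1 and B2, cyclin-dependent kinase 1 and FoxM1. Of these 5, 2 were lower, beside 5.06% of all genes tested, and their median log2 change was -1.25. The role groups here and below only divide the same 6 calls. Cdk1, the kinase itself, had 66.1, 98.6, 17.96 and 63.2 normalized counts in Pdpk1 KO, against 147, 122, 133 and 106 in WT. Its groups did not overlap, the Pdpk1 KO libraries varied more than the WT libraries, and the change of -1.25 did not pass (limma adjusted p = 0.0809). Ccna2 and Ccnb1, the genes of cyclins A2 and B1, averaged 82.2 ± 54.6 and 56.4 ± 22.2 in Pdpk1 KO and 202 ± 121 and 128 ± 75.2 in WT (SD, n = 4 each). Neither passed (log2 changes -1.74 and -1.07, limma adjusted p = 0.157 and 0.112). In Pdpk1 KO replicate 4 Ccna2 was down to 5.97. Cyclin B2 was the most abundant of the 3 cyclin transcripts per length, at 58.8 normalized counts per kilobase of exon in Pdpk1 KO and 153 in WT. Cyclin A2 stood at 20.1 and 49.5 and cyclin B1 at 13.4 and 30.3 per kilobase in Pdpk1 KO and WT.

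Of the 7 kinetochore genes, 1 (Cenpf) was lower, beside 5.06% of all genes tested, and the median log2 change was -1.19. The 4 subunits of the NDC80 complex, which binds microtubules at the kinetochore, had changes between -1.68 and -0.09. Nuf2 had 59.6, 21.9, 49.4 and 8.53 normalized counts in Pdpk1 KO, against 131, 79.2, 67.2 and 97.5 in WT, at a log2 change of -1.68 (limma adjusted p = 0.0547). Spc24 and Spc25 were at -1.19 and -1.32, also not past the threshold (limma adjusted p = 0.0868 and 0.0903). Ndc80, the partner that gives the complex its name, stood at 230.0, 144, 223 and 177 in Pdpk1 KO and 299, 131, 226 and 189 in WT. Its change of -0.09 was the smallest of the 37 (95% interval -0.63 to 0.45), the WT range enclosed the Pdpk1 KO range, and the sign turned without WT replicate 1. Cenpa, the histone H3 variant that marks centromeres, was also nearly level, at 678 ± 82.2 in Pdpk1 KO and 784 ± 95.4 in WT (SD, n = 4 each, log2 change -0.21, 95% interval -0.49 to 0.07). Cenpe, a kinetochore motor, was at -0.70 with overlapping groups.

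The chromosomal passenger complex corrects faulty attachments and later directs cytokinesis. Besides Birc5, its other 3 genes did not pass. Incenp, the scaffold, had 715, 736, 552 and 643 normalized counts in Pdpk1 KO, against 1072, 818, 783 and 869 in WT, a non-overlapping but small difference (log2 change -0.42, limma adjusted p = 0.0638). Cdca8, encoding borealin, averaged 90.7 ± 28.6 in Pdpk1 KO and 176 ± 53.2 in WT (log2 change -0.97, limma adjusted p = 0.0573). Aurkb, the kinase of the complex, stood at 126, 99.7, 67.4 and 52.9 in Pdpk1 KO and 293, 102, 111 and 102 in WT. Outside WT replicate 1 its WT libraries lay within the Pdpk1 KO range, and the change of -0.72 was -0.36 without that library (limma adjusted p = 0.269 and 0.591).

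None of the 3 tested genes among the 4 for mitotic kinases passed. Plk1, which drives centrosome maturation and several later steps, was the most abundant of them in reads, with 96.8, 76.7, 89.8 and 65.7 normalized counts in Pdpk1 KO, against 184, 113, 114 and 168 in WT. Its groups did not overlap (log2 change -0.79, limma adjusted p = 0.0832). Aurka, the spindle pole kinase, had overlapping groups, at 71.2 ± 25.8 in Pdpk1 KO and 95.2 ± 45.6 in WT (log2 change -0.38, limma adjusted p = 0.586). Ttk, the kinase that starts the spindle checkpoint, had 41.0, 24.1, 2.25 and 0 in Pdpk1 KO, against 69.9, 27.1, 51.6 and 37.8 in WT. The value of 0 allows up to 2.56 normalized counts in that library, for counting error only. Its change of -2.55 rested on low counts and did not pass (limma adjusted p = 0.12). Nek2, a centrosome kinase, was too low to test, with at most 12.1 in Pdpk1 KO and 42.8 in WT.

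Both checkpoint genes, whose products delay anaphase, missed the threshold. Bub1b, encoding BubR1, had 206, 153, 136 and 180.1 normalized counts in Pdpk1 KO, against 343, 201, 185 and 193 in WT (log2 change -0.42, limma adjusted p = 0.32). Bub1 averaged 16.9 ± 12.9 in Pdpk1 KO and 67.5 ± 45.6 in WT (SD, n = 4 each, log2 change -2.06, limma adjusted p = 0.0558). The 2 groups overlapped for both genes, Bub1 through Pdpk1 KO replicate 1.

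The 5 genes of spindle assembly had a median log2 change of -1.24 and none passed. Tpx2, which activates Aurora A on microtubules, had 81.0, 115, 136 and 69.1 normalized counts in Pdpk1 KO, against 409, 109, 151 and 117 in WT. The groups overlapped and WT replicate 1 stood alone. The other 4 ranged from -0.80 for the motor Kif11 to -1.60 for the chromosome motor Kif4, with Kif2c, a microtubule depolymerase, at -1.24 and the bundling protein Nusap1 at -1.32. Among these Nusap1 was the one whose groups did not overlap (71.2 ± 33.0 in Pdpk1 KO and 175 ± 94.2 in WT, SD, n = 4 each, limma adjusted p = 0.0586).

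The 6 genes of the central spindle and cytokinesis had the smallest median change among the role groups, -0.68, with 0 past the threshold and all 6 overlapping. Racgap1, a subunit of centralspindlin, had 551, 529, 318 and 265 normalized counts in Pdpk1 KO, against 1009, 556, 400.5 and 444 in WT (log2 change -0.50, limma adjusted p = 0.313). Its partner Kif23 was at -0.63 and the motor Kif20a at -0.65. Ect2, a cytokinesis factor that centralspindlin recruits, was at -1.29 and the bundling protein Prc1 at -1.17 (limma adjusted p = 0.0857 and 0.0893). Anln, the scaffold of the contractile ring, averaged 23.3 ± 8.53 in Pdpk1 KO and 53.9 ± 53.7 in WT (SD, n = 4 each), at a change of -0.71 that was -0.11 without WT replicate 1.

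Both genes of mitotic exit act with the anaphase-promoting complex. Cdc20, its activator, had 209, 114, 202 and 129.7 normalized counts in Pdpk1 KO, against 353, 176, 199 and 261 in WT, with overlapping groups (log2 change -0.59, limma adjusted p = 0.194). Ube2c, its ubiquitin-conjugating enzyme, had 47.5, 54.8, 51.6 and 0 in Pdpk1 KO, against 273, 116, 183 and 115 in WT. Ube2c had the largest fitted change, -3.06, which rested in part on the library at 0 and did not pass (limma adjusted p = 0.0624). It passed without Pdpk1 KO replicate 1, 2 or 4.

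Mki67, Top2a and Stmn1 made up the group of proliferation and chromosome genes, with 2 of 3 lower, beside 5.06% of all genes tested. Stmn1, encoding the microtubule destabilizer stathmin, was the most abundant of the 38 per length, at 399.6 normalized counts per kilobase in Pdpk1 KO and 532 in WT. Its values were 724, 1016, 804 and 528 in Pdpk1 KO and 1291, 782, 1142 and 878 in WT, and the change of -0.42 did not pass (limma adjusted p = 0.195).

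**Figure D3:**
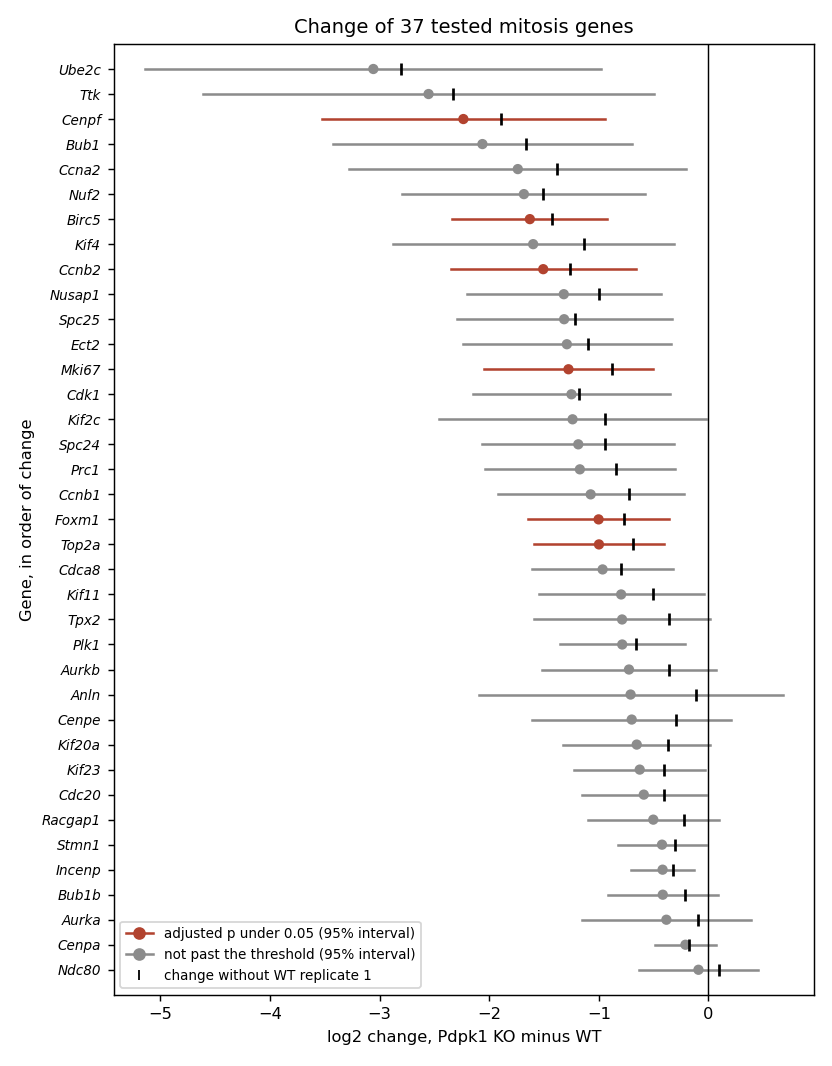
log2 change, Pdpk1 KO minus WT, of the 37 tested mitosis genes in order of size, with 95% intervals from limma, the 6 genes past the threshold in red and the change without WT replicate 1 as a black tick. The points run from -3.06 for Ube2c to -0.09 for Ndc80, and 36 of the 37 ticks lie below 0.

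Libraries of 1 group differed widely in these genes. The SD of a tested mitosis gene within the group, on the log2 scale, had a median of 0.57 in Pdpk1 KO and 0.60 in WT, against 0.25 and 0.24 for all genes tested. Without WT replicate 1 the median in WT was 0.28. The median mean level was 122 normalized counts for the 38, against 419 for all genes tested. WT replicate 1 exceeded the mean of the other 3 WT libraries by a median ratio of 2.07 over the 38 genes, from 1.07 to 4.58. Pdpk1 KO replicate 1 was the highest Pdpk1 KO library for 28 of the 38 and replicate 4 the lowest for 24. The mean level of macrophage markers, as log2(normalized count + 1), was 5.72, 7.65, 7.16 and 5.75 in Pdpk1 KO and 3.13, 6.24, 4.08 and 4.67 in WT. WT replicate 1, highest in mitosis genes, was lowest in these markers, and WT replicate 2, lowest of the WT libraries in summed mitosis genes, was the highest WT library in them. Within Pdpk1 KO the order differed, since replicates 1 and 4, the highest and lowest in mitosis genes, had nearly the same marker level. The part of macrophage RNA in the result was not tested.

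**Figure D4:**
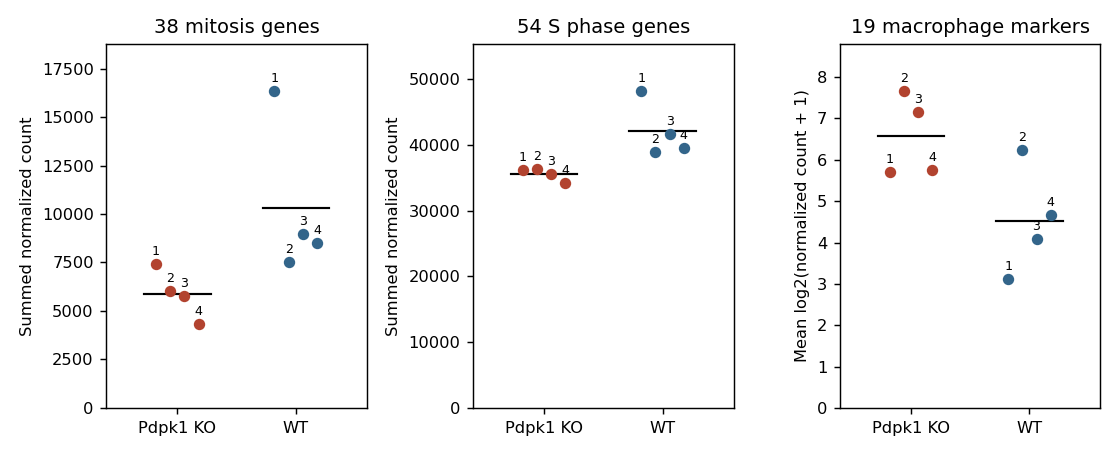
Summed normalized counts of the 38 mitosis genes and of 54 S phase genes, and the mean log2(normalized count + 1) of 19 macrophage markers, with 1 numbered point per library, Pdpk1 KO on the left and WT on the right, and lines at the group means. The Pdpk1 KO libraries sum to between 4333 and 7435 for mitosis genes, against 7525 to 16320 in WT, and to between 34184 and 36300 for S phase genes, against 38977 to 48162 in WT.

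Other genes of the same machinery were counted in the same way, beside 5.06% of all genes lower and 4.41% higher in limma. Of 40 further kinetochore and checkpoint genes, 0 passed in either direction in limma, with a median log2 change of -0.22. At an unadjusted p under 0.05, 9 of the 40 were lower and 2 higher. Of all genes 12.2% were lower at that p, and 23% reached it in either direction. edgeR called 0 of the 40, beside 4.73% of all genes lower and 4.33% higher. DESeq2 called 1 lower and 1 higher, beside 6.56% and 6.12%. The most abundant of them, Bub3, a checkpoint protein, and Hjurp, the chaperone of Cenpa, were at -0.06 and -0.23. Of 49 further genes of the spindle, chromosome condensation and cytokinesis, 2 were lower, 0 were higher and 47 did not pass, with a median of -0.61. At an unadjusted p under 0.05, 17 of the 49 were lower and 1 higher, where 12.2% of all genes were lower. edgeR called 2 lower and DESeq2 4, beside 4.73% and 6.56% of all genes, and each called 0 higher. The 2 limma calls were motors. Kifc1 had 360.3, 280.5, 381 and 483 normalized counts in Pdpk1 KO, against 711, 583, 626 and 736 in WT (log2 change -0.84, limma adjusted p = 0.0040). Kif15 had 123, 30.7, 34.8 and 46.1 in Pdpk1 KO, against 274, 131, 146 and 142 in WT (log2 change -1.71, limma adjusted p = 0.0138). For both, the groups did not overlap, and both kept their calls without WT replicate 1 (limma adjusted p = 0.0113 and 0.0444). Both lost them with the macrophage covariate (log2 changes -0.56 and -0.81, limma adjusted p = 0.212 and 0.482) and when Pdpk1 KO replicates 2 and 3 and WT replicate 2 were left out (-0.72 and -1.23, limma adjusted p = 0.0665 and 0.199). Of 17 genes of the anaphase-promoting complex and its cofactors, Fzr1, the activator used after mitosis and in resting cells, was lower by a small amount (log2 change -0.42, limma adjusted p = 0.0419) and 16 did not pass. Without WT replicate 1 its change was -0.38 and did not pass (limma adjusted p = 0.0943).

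Of 24 tested kinases, phosphatases and cofactors that regulate cyclin-dependent kinases, 2 were lower, 1 was higher and 21 did not pass, shares near those of all genes (5.06% lower and 4.41% higher). Cks1b, a subunit that binds the kinase, had 143, 140.3, 110.02 and 107.5 normalized counts in Pdpk1 KO, against 304, 223, 275 and 253 in WT (log2 change -1.07, limma adjusted p = 0.00314). Pkmyt1, a kinase that holds Cdk1 inactive, was at -0.89 (limma adjusted p = 0.00872). Cdc25b, a phosphatase that removes such inhibitory phosphates, rose, with 2219, 3238, 3073 and 2053 in Pdpk1 KO, against 1706, 1575, 1518 and 1152 in WT (log2 change 0.82, limma adjusted p = 0.00315). Of 6 tested inhibitors of cyclin-dependent kinases, Cdkn2c, encoding p18INK4c, was lower, at 121, 134, 67.4 and 139 in Pdpk1 KO, against 364, 275, 337 and 315 in WT (log2 change -1.52, limma adjusted p = 0.00079). The other 5 did not pass. All 4 of these genes kept their calls without WT replicate 1. None of the 4 passed with the macrophage covariate, where Cks1b, Pkmyt1, Cdc25b and Cdkn2c were at -0.91, -0.67, 0.62 and -1.23 (limma adjusted p = 0.12, 0.256, 0.142 and 0.0589). With Pdpk1 KO replicates 2 and 3 and WT replicate 2 left out, Cks1b and Cdkn2c passed, and Pkmyt1 and Cdc25b did not (limma adjusted p = 0.161 and 0.113).

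Among 20 genes of the E2F, retinoblastoma and MuvB families, which set the timing of cell cycle transcription, 3 were lower, 0 were higher and 17 did not pass. Of all genes tested 5.06% were lower and 4.41% higher. E2f2, an activator, had 769, 646.5, 888 and 793 normalized counts in Pdpk1 KO, against 1856, 1371, 1254 and 1735 in WT (log2 change -0.99, limma adjusted p = 0.000301). E2f8 and E2f7, repressors that act late in S phase, were at -2.24 and -2.21 (limma adjusted p = 0.00567 and 0.0253). E2f2 and E2f8 kept their calls without WT replicate 1, and E2f7, then at -1.89, did not (limma adjusted p = 0.0983). With the macrophage covariate E2f2 passed at -0.82 (limma adjusted p = 0.0291), and E2f8 and E2f7 did not, at -1.34 and -1.61 (limma adjusted p = 0.294 and 0.395). Of 54 S phase genes, 9 were lower, 0 were higher and 45 did not pass, and the median change was -0.32. At an unadjusted p under 0.05, 25 of the 54 were lower and 0 higher, where 12.2% of all genes were lower. edgeR called 9 lower and DESeq2 14, beside 4.73% and 6.56% of all genes, and each called 0 higher. For 17 of the 54 all Pdpk1 KO libraries lay under all WT libraries, as for 8.24% of all genes tested. Without WT replicate 1 the number lower was 4, beside 4.33% of all genes. Tyms, Mcm5, Rrm2 and Uhrf1 were at log2 changes of -1.33, -0.59, -1.08 and -1.002 with all libraries. All 4 kept their calls without WT replicate 1 (limma adjusted p = 0.00725, 0.0140, 0.0141 and 0.0188). None of the 4 passed with the macrophage covariate (limma adjusted p = 0.056, 0.189, 0.331 and 0.524). With Pdpk1 KO replicates 2 and 3 and WT replicate 2 left out, Tyms passed, and Mcm5, Rrm2 and Uhrf1 did not (limma adjusted p = 0.0276, 0.0930, 0.171 and 0.130). The summed level of mitosis genes over that of S phase genes was 0.206, 0.167, 0.161 and 0.127 in Pdpk1 KO and 0.339, 0.193, 0.215 and 0.216 in WT, so that Pdpk1 KO replicate 1 lay within the WT range.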

How the data were processed

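RNA-seq libraries of sorted Treg, 4 Pdpk1 KO and 4 WT, were compared. The deposited table holds 1 signal value per gene and library, read counts that the authors divided by DESeq2 size factors, per its name and the submitters' processing notes (the labels give no further steps). Listed without roles in the submitters' processing notes are GRCm38, DESeq2 1.21, featureCounts of Subread 2.0.1, SAMtools 1.11, STAR 2.7.6a and Trimmomatic 0.39. Strand setting, annotation release and the treatment of reads shared with near-identical copies are not given in the sources used here. Reads of overlapping genes then cannot be told apart. Exons of 7 of the 38 members overlap those of another listed gene on the opposite strand, Kif20a for 29.3% of its exon bases and the other 6 for 15.1% or less. In each library 100% of values were whole multiples of that library's value of 1 read (tolerance 0.001), so whole reads were recovered. Of 19826 genes, 19775 matched a symbol in GENCODE M21, which also gave positions and exon lengths.

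Genes with at least 10 normalized counts in 4 or more of 8 libraries were tested with limma 3.58.1 in R 4.3.3 (lmFit, eBayes with trend) on log2(normalized count + 1), two-sided, Benjamini-Hochberg adjusted over 13847 genes, threshold 0.05. Log2 changes on this scale can understate changes of low genes, and overstate them where a library is at 0 (Ttk was at -2.55 here and -1.47 in DESeq2). edgeR 4.0.16 and DESeq2 1.42.0 on recovered reads were among 19 alternatives, and on those reads they called 1254 and 1756 genes. The steps were tested on simulated data. Members and lists were chosen with earlier results of these data known. Each list is counted once. Named in full were called members, the most abundant member of a role group without a call, and up to 4 called genes of other lists (otherwise the 2 most abundant). Other members with values in every library were chosen after their values were seen. The labels do not say whether replicate numbers pair libraries, and the main fit did not pair them. Same-numbered correlations of deviations were low, at 0.0481 to 0.217, and did not settle it. No replicate pair agreed within counting noise (chi-square per degree of freedom 14.5 or more). A floor of 3 reads covers counting error only, since no molecular identifiers are described.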

Additional observations from a re-analysis of the deposited data

Results flagged for a closer look

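In groups of 4 libraries, 1 library stood apart from the other 3 by more than Dixon's 95% limit for 14 of 114 groups examined. The limit was applied to normalized counts without a log. The groups are genes and a sum measured in the same 8 libraries, so the flags are not independent and were not compared with chance. WT replicate 1 accounted for 11 of the 14. Its values among mitosis genes were 2446 normalized counts for Mki67, 374 for Ccnb2, 343 for Bub1b, 163 for Aurka, 293 for Aurkb, 285 for Cenpf, 409 for Tpx2 and 316 for Nusap1. The highest values of the other WT libraries for these genes were 931, 193, 201, 76.4, 111, 113, 151 and 139. The same library stood apart in the summed level of the 38 mitosis genes, at 16320 against at most 8975, and in Kif15 at 274 and E2f7 at 91.3. Pdpk1 KO replicate 1 stood apart in Kif15 at 123. Pdpk1 KO replicate 4 stood apart in Ube2c, at 0 against 47.5 to 54.8, and in Pkmyt1, at 233 against 145 to 152.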

How the results depend on the processing

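All alternatives below were planned. The number of mitosis genes called lower was 6, beside 700 of all 13847 genes. It was 5 in edgeR, under TMM scaling and under quantile normalization, beside 655, 698 and 734 of all genes. Without a filter it was 5, beside 712 of 19826 genes. With a pseudocount of 0.5 it was 6 and with a pseudocount of 5 it was 9, beside 692 and 760 of all genes. Under a stricter filter of 50 it was 7, beside 671 of 10644 genes. In DESeq2 it was 14, beside 908 of 13847 genes. Adding the macrophage covariate gave 0, and dropping the 3 macrophage-high libraries gave 1. Leaving out 1 library gave 1 to 15. In every one of these fits 0 were higher. With a replicate block the number lower was 24, with 1292 genes lower and 1243 higher over all. The labels do not say that the numbers pair the libraries. Correlations of same-numbered deviations were 0.0481 to 0.217. For 3 of 4 Pdpk1 KO and 3 of 4 WT libraries the best correlation was with their own number. That is a hint from the data only, and pairing was not settled. The median log2 change, -1.002, was -0.44 with the macrophage covariate and ran from -1.23 to -0.77 when 1 library was left out. Over all genes, 700 lower and 611 higher became 259 and 198 with the covariate, 305 and 167 without the 3 libraries, and 495 to 724 and 389 to 588 when 1 library was left out.

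Some changes turned sign, with none past the threshold in either fit. With the macrophage covariate Bub1b was at 0.0084, Aurka at 0.31, Cenpe at 0.090, Kif11 at 0.12, Anln at 0.56 and Ndc80 at 0.51. Ndc80 was at 0.00739 under quantile normalization and ran from -0.30 to 0.10 when 1 library was left out, above 0 without Pdpk1 KO replicate 2 or WT replicate 1. Foxp3 ran from -0.0092 to 0.17, below 0 without Pdpk1 KO replicate 1. Of 699 refitted values of single mitosis genes, 601 kept sign and side of the threshold, 41 lost a call, 48 gained one and 9 turned sign. The cause of these differences was not tested. Low counts limit Nek2, Ttk, Bub1 and Anln most.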
